A study of Mus musculus with 2 samples.

Results

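The mitochondrial ribosomal protein genes were taken from the RNA-seq table of PB and PB-TERRA mESCs as the rows whose gene symbol is Mrpl or Mrps followed by a number and, in some cases, a letter from a to c. This rule uses no measured value. It found 77 of the 18888 genes in the table, 48 with an Mrpl symbol and 29 with an Mrps symbol. The cells are 46C, a mouse embryonic stem cell line grown on gelatin-coated plates and used between passages 21 and 24. PB mESCs carried the empty PiggyBac vector, and PB-TERRA mESCs carried a PiggyBac vector that expresses polyadenylated TERRA, the noncoding RNA made from telomere repeats. Each condition was a single library, so the comparison is between 2 libraries and nothing in it measures the spread between cultures. No p-value is given for this reason. Whether the transgenic lines were pools or clones is not given in the sources used here.

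Mitochondria have their own ribosome, which makes the few proteins encoded by mitochondrial DNA, all of them subunits of the oxidative phosphorylation complexes. Its proteins are encoded in the nucleus, made in the cytosol and imported, and they join ribosomal RNAs made inside the mitochondrion. Part of these proteins have relatives in the bacterial ribosome, from which the mitochondrial ribosome descends, and the others, called mitochondria-specific here, hold places that have no counterpart in it. Mouse embryonic stem cells grow fast and draw energy from both glycolysis and oxidative phosphorylation.

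The promoters of nuclear genes for mitochondrial proteins often hold sites for NRF1, for GABP (an ETS family factor) and for YY1. RefSeq windows from 250 bases before to 50 bases after the start site were given for 68 of the 77 genes (assembly GRCm38.p6, matched by gene number), and they were searched on both strands for GCATGCGC (NRF1), CCGGAAG (ETS) and AAGATGGCG (YY1). The windows below are the 100 bases before the start site of 4 members that hold such letters, written 5′ to 3′ on the strand of the gene. They are shown because they place these letters close to the start site in genes of both subunits. Capitals mark the matches. In Mrpl9 the capitals hold NRF1 letters on each strand, overlapping within GCGCATGCGC.
Mrpl9: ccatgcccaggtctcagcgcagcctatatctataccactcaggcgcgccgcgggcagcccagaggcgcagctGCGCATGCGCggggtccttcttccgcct
Mrpl22: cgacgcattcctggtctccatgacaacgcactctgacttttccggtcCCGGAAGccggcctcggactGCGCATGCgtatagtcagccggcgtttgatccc
Mrps22: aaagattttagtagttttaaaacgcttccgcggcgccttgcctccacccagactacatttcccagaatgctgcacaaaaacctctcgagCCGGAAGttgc
Mrps18a: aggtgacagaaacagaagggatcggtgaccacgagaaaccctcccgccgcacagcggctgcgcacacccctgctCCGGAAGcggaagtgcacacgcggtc
These windows lie at chr3:94443236-94443335 on the plus strand (Mrpl9), chr11:58171564-58171663 on the plus strand (Mrpl22), chr9:98601680-98601779 on the minus strand (Mrps22) and chr17:46110904-46111003 on the plus strand (Mrps18a). Mrpl22 holds both the ETS and the NRF1 letters, and Mrps22 and Mrps18a hold the ETS letters.

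A gene was counted if any of its windows held the letters. The ETS letters were found in 25 of the 68 members (36.8%). They were found in 21.1% of the 9473 genes past the expression filter that had a window, and in 9.93% of all 27025 genes with a window. The NRF1 letters were found in 8 members (11.8%), against 6.33% of the filtered genes and 3.05% of all genes with a window. The YY1 letters were also found in 8 members (11.8%), against 3.82% and 1.64%. At least 1 of these 3 motifs stood in 35 members (51.5%), against 28.7% of the filtered genes. The CCAAT box was found in 27 members (39.7%, against 43.6% of the filtered genes) and the TATA box, searched as TATAAA, in 5 (7.35%, against 8.21%). A match of letters is a description of the window and not a measured binding site.

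All 77 genes were expressed in both libraries. The deposited values were read as FPKM, reads relative to gene length and library depth, so levels can be compared between genes. All 77 passed the filter of 1 FPKM in at least 1 library, which 12263 of the 18888 genes passed. The median level was 40.94 FPKM in PB mESCs and 38.04 FPKM in PB-TERRA mESCs, against 11.03 and 10.97 FPKM over all genes past the filter. In PB mESCs, 57 of the 77 lay between 20 and 70 FPKM. The sum of all members was 0.701% of all FPKM in PB mESCs and 0.689% in PB-TERRA mESCs.

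The reads behind these values were estimated from the steps between low FPKM values and gene length. This gave about 2.48e+07 reads for PB and 2.49e+07 reads for PB-TERRA, and between 204 and 3601 reads per library for each member. The reads are approximate, since 72.9% (PB) and 77.3% (PB-TERRA) of the low values fell on whole reads within rounding. The label of the cells was met by the markers of embryonic stem cells, since all 10 were expressed, with Pou5f1 at 744.67 and 773.31 FPKM in PB and PB-TERRA. Of the 16 markers of fibroblasts, primitive endoderm and neural progenitors, 9 passed the filter. The highest were Nes (27.3 FPKM in PB and 20.93 in PB-TERRA), Thy1 (9.16 and 8.39) and Col1a1 (7.99 and 12.14). The summed level of the markers past the filter was 18.07 and 21.90 FPKM for the 3 fibroblast markers, 4.97 and 7.43 for the 4 of primitive endoderm, all of them higher in PB-TERRA, and 28.36 and 22.49 for the 2 neural ones. The highest and lowest log2 ratios, PB-TERRA over PB, were 0.33 (Tfcp2l1) and -0.16 (Dppa5a) among stem cell markers, 0.60 (Col1a1) and -0.13 (Thy1) among fibroblast markers, 0.85 (Pdgfra) and 0.30 (Gata4) among those of primitive endoderm, and 0.52 (Sox1) and -0.38 (Nes) among the neural ones. The part of other cell types in the ratios below was not tested.

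The order of the members by level was nearly the same in both libraries (Spearman's rho of 0.987 across the 77 genes, which are not independent replicates). Mrpl42, a mitochondria-specific protein of the large subunit, had the highest level with 148.07 FPKM in PB and 150.27 FPKM in PB-TERRA. Mrps18b, of the small subunit, followed with 131.83 and 130.34 FPKM. Mrpl20, a large subunit protein with a bacterial relative, stood at 120.49 and 120.18 FPKM. The levels of these 3 genes were within 2% of each other between the libraries. Mrpl12, which forms the stalk that recruits translation factors, was at 109.89 and 91.66 FPKM in PB and PB-TERRA. Mrpl18, a central protuberance protein, was at 87.33 and 88.01 FPKM.

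At the other end, Mrpl57 was at 5.54 FPKM in PB and 6.07 in PB-TERRA, Mrps25 at 7.87 and 7.54, and Mrpl41 at 8.66 and 8.73. These are the 3 members under 10 FPKM in both libraries. Mrpl19 (9.59 and 10.55 FPKM) and Mrpl35 (12.75 and 14.00 FPKM) came next. Levels thus spanned 26.7-fold in PB mESCs and 24.8-fold in PB-TERRA mESCs, although the ribosome holds most of these proteins in equal number. Gene length in the table enters each FPKM value, and several low members have long gene models (6076 bases for Mrps25 and 5016 for Mrpl19).

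**Figure D1:**
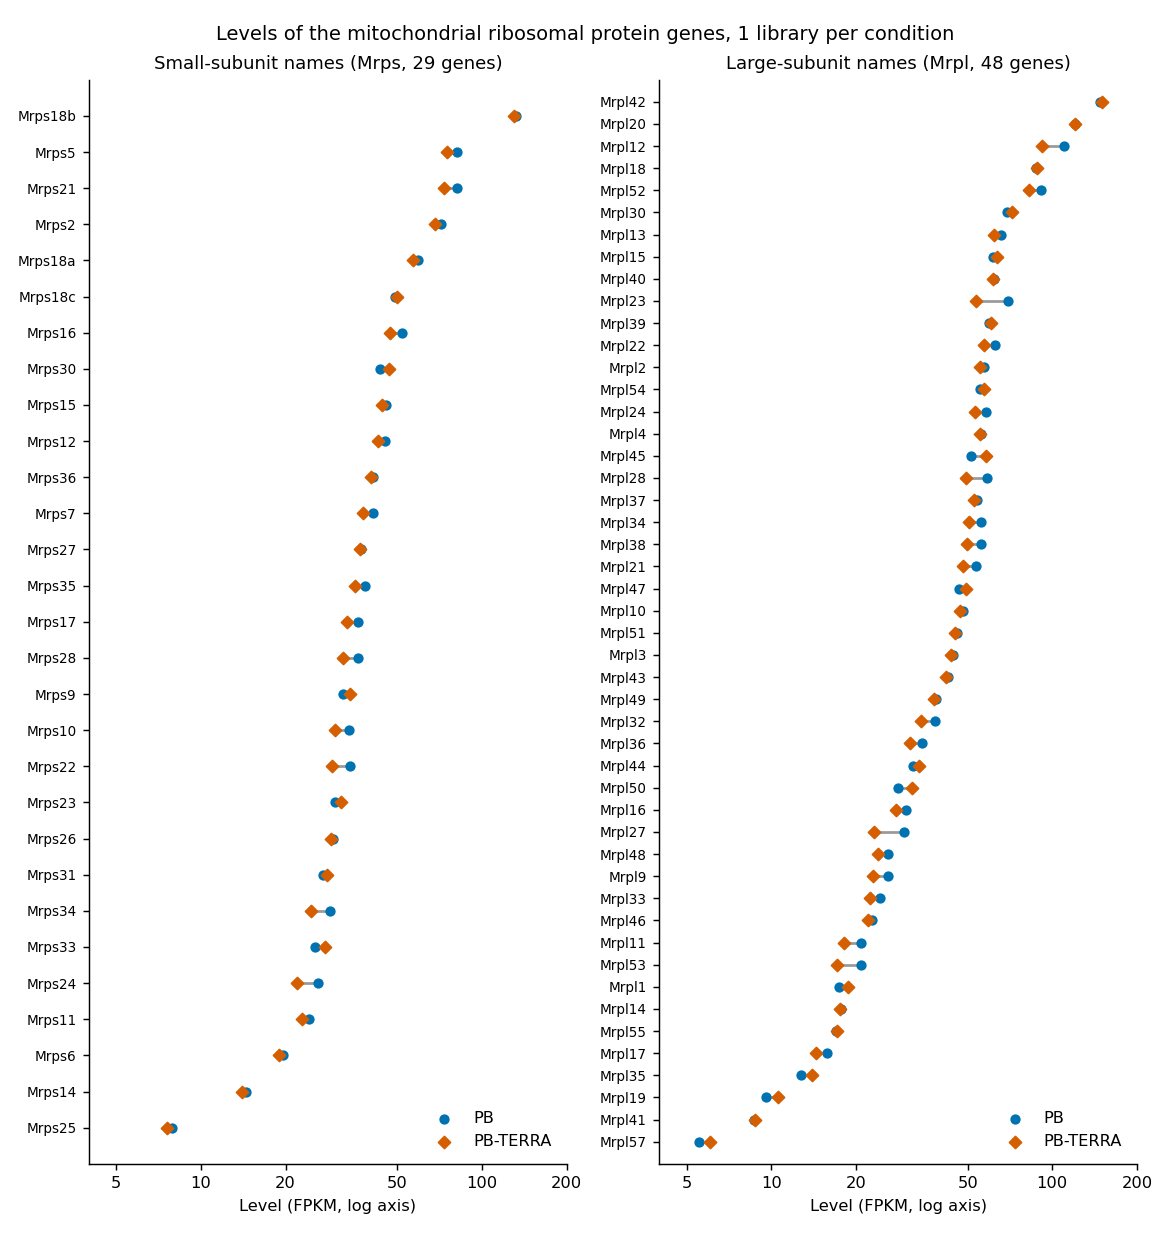
Level of each of the 77 genes in FPKM (log axis) in the PB library (circles) and the PB-TERRA library (diamonds), with 29 Mrps genes on the left and 48 Mrpl genes on the right, ordered by mean level. The points of a gene lie close together along a range from 5.54 FPKM (Mrpl57 in PB) to 150.27 FPKM (Mrpl42 in PB-TERRA), and the widest gap is that of Mrpl23.

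The ratios between PB-TERRA and PB were small for every member. In RNA from a whole culture, less RNA per cell and fewer cells of a type cannot be told apart. On the scale of log2(FPKM + 0.1), they ran from -0.38 to 0.17, with a standard deviation across members of 0.12, against 0.31 across all genes past the filter. None of the 77 reached an absolute log2 ratio of 1, which 0.913% of all genes did. These sets are not matched by level. The lowest mean level was 5.805 FPKM among the members and 0.505 FPKM among all genes past the filter. With a mean of at least 5 FPKM required, 17 of all genes reached an absolute log2 ratio of 1, in place of 112. A log2 ratio of -0.3 or lower was seen for 2 members (2.60%), against 7.00% of all genes, and a log2 ratio of 0.3 or higher for 0 members, against 5.96% of all genes. Within 0.2 of 0 lay 69 of the 77 members, and 74.9% of all genes.

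More members were lower than higher in PB-TERRA mESCs. The count was 55 lower (71.4%, against 50.9% of all genes) and 22 higher (28.6%, against 48.6% of all genes), with a median log2 ratio of -0.05, against -0.0044 over all genes. With each library divided by its own sum of FPKM, which moves the ratios of all genes up nearly alike, 42 members were lower (54.5%, against 41.3% of all genes) and 35 higher (45.5%, against 58.7%), with a median of -0.0090 against 0.033 over all genes. Centred on the median of all genes, 53 members were lower and 24 higher. The members thus lay below the median of all genes under each of these scalings. With the median ratio of genes of like length taken off (50 length bins), 38 members were lower and 39 higher. Of all genes, 49.9% then lay in each direction, and the median of the members was 0.0069. In each of the wider length classes given below, the share of members that were lower still exceeded that of all genes.

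An exact 95% interval for the ratio of the estimated reads gives the precision that counting alone allows. It does not cover differences between cultures or library preparations. The interval lay below 0 for 20 members (26.0%, against 17.5% of all genes) and above 0 for 5 members (6.49%, against 18.2% of all genes), and it included 0 for 52. With the length trend taken off, it lay below 0 for 9 members (11.7%, against 17.1% of all genes) and above 0 for 8 (10.4%, against 18.0%). The median half-width of the interval was 0.13 on the log2 scale for the members, so smaller differences were not detectable at this depth for a typical member.

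**Figure D2:**
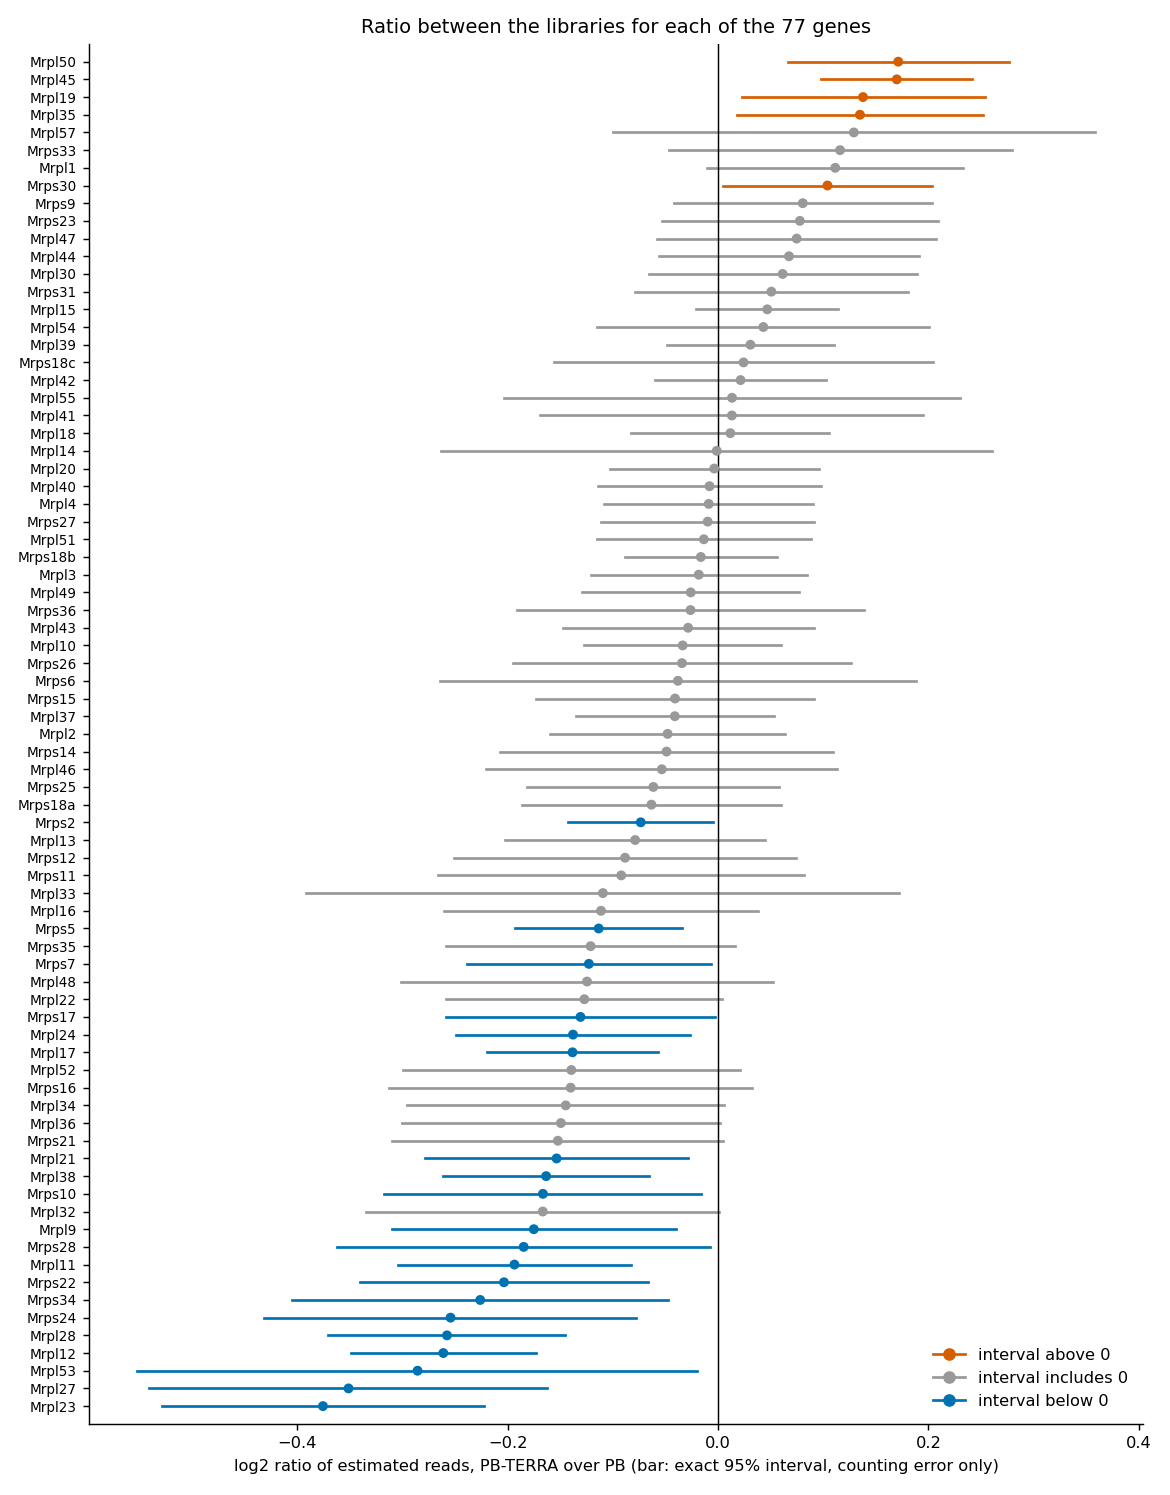
Log2 ratio of estimated reads, PB-TERRA over PB, for each of the 77 genes in order, with bars for the exact 95% interval from counting error only. Of the intervals, 20 lie below 0 (blue, at the bottom), 5 above 0 (orange, at the top) and 52 include 0 (grey), from Mrpl23 at -0.38 to Mrpl50 at 0.17.

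Of the 8 lowest ratios, 5 belonged to the large subunit, which holds 50 of the 77 members. Counting intervals below 0 were found for 11 of these 50 and for 9 of the 26 small subunit genes, against 17.5% of all genes. With the length trend taken off they were found for 9 of all 77 members (11.7%, against 17.1% of all genes). Mrpl23, a protein at the rim of the tunnel through which the new chain leaves, was at 69.30 FPKM in the PB library and 53.38 FPKM in the other, giving a log2 ratio of -0.38 (95% counting interval -0.53 to -0.22). Mrpl27, which lies close to the catalytic center, was at 29.57 and 23.16 FPKM, a log2 ratio of -0.35 (interval -0.54 to -0.16). These are the 2 members past -0.3. Mrpl53, a mitochondria-specific protein, was at 20.93 and 17.19 FPKM, and its interval was wide (-0.28, interval -0.55 to -0.02) because it rests on 262 and 216 reads.

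Mrpl12 combined a high level with a low ratio (log2 ratio -0.26, interval -0.35 to -0.17), resting on 2310 and 1937 reads. The difference of its levels (PB-TERRA minus PB), -18.23 FPKM, was the widest of all members. Mrpl28, with a bacterial relative, was at 58.71 and 49.14 FPKM (log2 ratio -0.26, interval -0.37 to -0.15). Mrpl12 and Mrpl28 differed in level and had nearly equal ratios.

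In the small subunit the lowest ratios were those of Mrps24, Mrps34 and Mrps22. Mrps24, which has a bacterial relative, was at 26.13 and 21.89 FPKM (log2 ratio -0.25, interval -0.43 to -0.08). Mrps34, a mitochondria-specific protein, was at 28.88 and 24.68 FPKM (-0.23, interval -0.40 to -0.05). Mrps22, another mitochondria-specific protein and the gene with ETS letters 11 to 5 bases before its start site, was at 33.82 and 29.37 FPKM (-0.20, interval -0.34 to -0.07). The ratios of all 8 lowest members stayed below 0 with the length trend taken off, between -0.34 (Mrpl23) and -0.17 (Mrps34). The counting intervals of Mrpl53 and Mrps34 then included 0. With GC content and length taken off together, the 8 ratios also stayed below 0, between -0.30 (Mrpl23) and -0.11 (Mrps34).

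At the upper end, the ratios were smaller in size. Mrpl50, a mitochondria-specific protein, was at 28.22 FPKM in the PB library and 31.78 FPKM in the PB-TERRA library (log2 ratio 0.17, interval 0.07 to 0.28). Mrpl45, which holds the ribosome at the inner mitochondrial membrane, was at 51.53 and 57.97 FPKM (0.17, interval 0.10 to 0.24), with 2957 and 3343 reads. Both lay above 0 by counting error, and both stayed above 0 with the length trend taken off (0.19 each).

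Mrpl19 had a log2 ratio of 0.14 (interval 0.02 to 0.25), Mrpl35 one of 0.13 (interval 0.02 to 0.25) and Mrps30 one of 0.10 (interval 0.0046 to 0.20). Mrps30 carries a small subunit name, but its protein sits in the large subunit, where it was at 43.39 and 46.64 FPKM. These genes and the previous pair are the 5 whose interval lay above 0, a place that 18.2% of all genes took. All 5 are large subunit proteins, as are 50 of the 77 members. With the length trend taken off, the interval of Mrpl19 included 0, and that of Mrps9, a small subunit gene, lay above 0. Mrpl57 (0.13, interval -0.10 to 0.36), Mrps33 (0.12, interval -0.05 to 0.28) and Mrpl1 (0.11, interval -0.01 to 0.23) complete the 8 highest ratios, and their intervals include 0. Mrps33, at 25.46 and 27.63 FPKM, had the highest ratio in the small subunit.

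The length of the gene moved with the ratio. Across the 77 members, Spearman's rho between log2 ratio and gene length was 0.36, and across all 12263 genes it was 0.18. For GC content it was -0.39 across the members and -0.28 across 11558 genes with a value. Genes are not independent, and they share the same libraries, so these are descriptions. The members were short, with a median length of 1067 bases against 2801 over all genes.

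Of the members under 700 bases, 10 of 13 were lower in PB-TERRA mESCs (76.9%), against 60.0% of all genes of that length. The counts were 14 of 18 between 700 and 1000 bases (77.8%, against 62.9%) and 20 of 24 between 1000 and 1500 bases (83.3%, against 61.7%). From 1500 bases upward, 11 of 22 members were lower, against 48.3% of all genes. The members' lean to lower values thus stood in the genes under 1500 bases, where all genes leaned the same way by a smaller share.

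**Figure D3:**
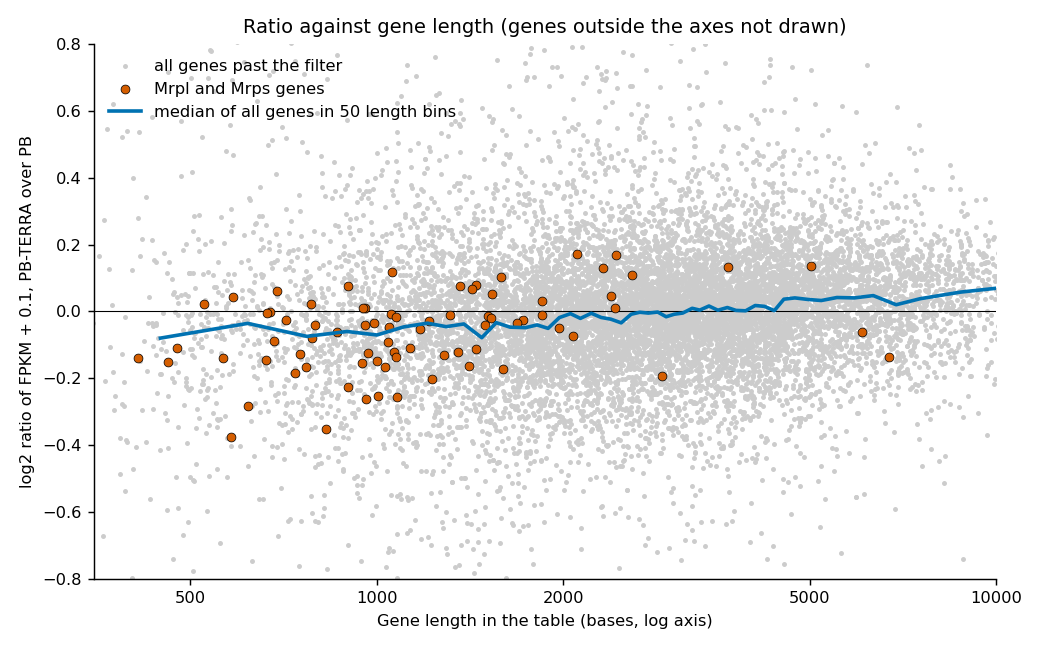
Log2 ratio of FPKM + 0.1, PB-TERRA over PB, against gene length in bases (log axis) for all genes past the filter (grey) and the 77 Mrpl and Mrps genes (orange), with the median of all genes in 50 length bins (blue line). The blue line lies below 0 for short genes and above 0 for long ones, and most orange points lie in the short range, with a median length of 1067 bases.

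Grouped by place, the 26 small subunit genes were lower in 21 cases and higher in 5, with a median log2 ratio of -0.08. The 50 large subunit genes were lower in 33 and higher in 17, with a median of -0.03. Of all genes, 50.9% were lower. With the length trend taken off, the medians were -0.04 and 0.02, and 16 of 26 and 22 of 50 were lower. By symbol alone, the 29 Mrps genes had a median of -0.06 (23 lower) and the 48 Mrpl genes one of -0.03 (32 lower). The median of the Mrpl genes was above 0 when each library was divided by its own sum (0.0069, against 0.033 over all genes), it was -0.03 when centred on all genes, and it was 0.02 with the length trend taken off.

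Grouped by counterpart in the bacterial ribosome, the 46 proteins with a bacterial relative were lower in 36 cases, with a median log2 ratio of -0.10. The 30 mitochondria-specific proteins were lower in 18, with a median of -0.01. Of all genes, 50.9% were lower, and between 60.0% and 62.9% in the length classes under 1500 bases. The summed reads of the bacterial group were 53231 and 50798 (PB and PB-TERRA), a log2 ratio of -0.07 (95% counting interval -0.09 to -0.06). Those of the mitochondria-specific group were 37386 and 37636, a log2 ratio of 0.0025 (interval -0.02 to 0.02). The mitochondria-specific genes were also longer, with a median length of 1296.5 bases against 1003.5. With the length trend taken off, 28 of the 46 and 10 of the 30 were lower, and the medians were -0.04 and 0.04. No test of the difference between these groups was made, since genes of 2 libraries are not replicates.

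The same order held within each subunit. In the small subunit, 14 of 16 genes with a bacterial relative were lower (median -0.10), and 7 of 10 mitochondria-specific genes (median -0.02). In the large subunit the counts were 22 of 30 (median -0.09) and 11 of 20 (median -0.01). Among the small subunit genes with a bacterial relative, Mrps9 (31.99 and 33.82 FPKM, log2 ratio 0.08) and Mrps18c (0.02) were the 2 that were higher.

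**Figure D4:**
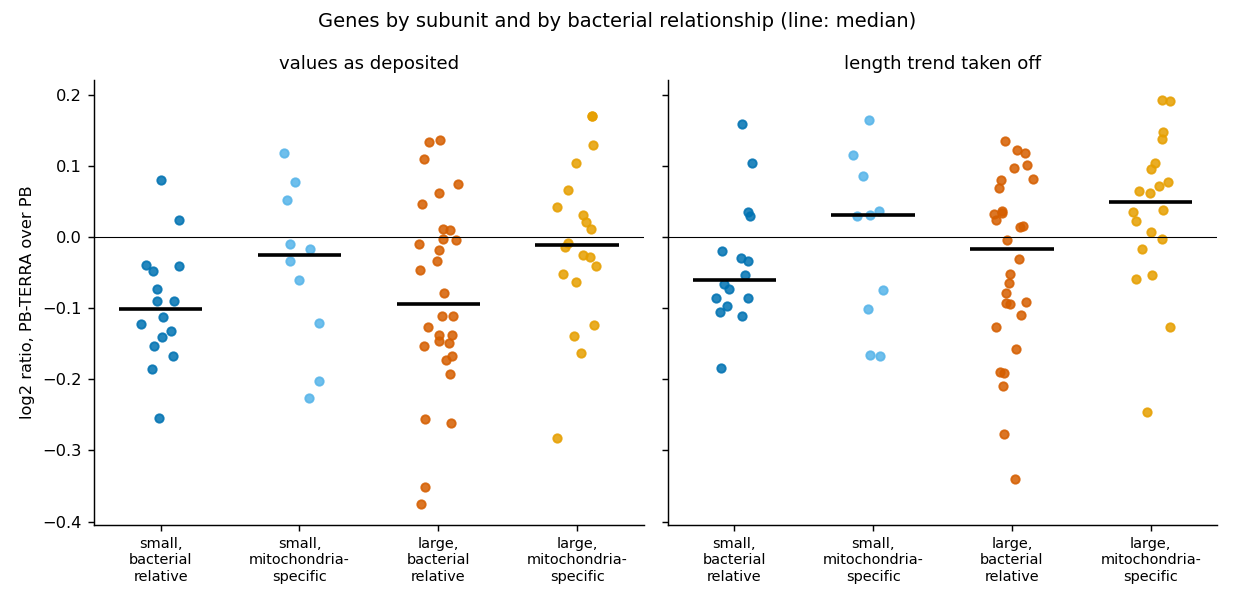
Log2 ratio, PB-TERRA over PB, of the genes in 4 groups by subunit and bacterial relationship, as deposited (left) and with the median of genes of like length taken off (right), with 1 point per gene and a line at the median. The medians on the left are -0.10, -0.02, -0.09 and -0.01, and on the right -0.06, 0.03, -0.02 and 0.05.

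Within the large subunit, the stalk genes were all lower in PB-TERRA mESCs. Mrpl10, which anchors the stalk, was at 48.08 and 46.97 FPKM (log2 ratio -0.03, interval -0.13 to 0.06). Mrpl11, at the stalk base, was at 20.82 and 18.21 FPKM (-0.19, interval -0.30 to -0.08), and Mrpl12 is given above. With the length trend taken off, 2 of these 3 were lower, with Mrpl10 at 0.01.

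The rim of the exit tunnel was mixed, with 4 of 8 genes lower and 4 higher. It holds both Mrpl23, the lowest of all members, and Mrpl45, one of the highest. Of the others, Mrpl24 was at 58.27 and 52.96 FPKM (-0.14) and Mrpl17 at 15.84 and 14.39 (-0.14), while Mrpl47 was at 46.70 and 49.19 (0.07) and Mrpl44 at 31.98 and 33.50 (0.07). The central protuberance had 5 of 6 genes lower (median -0.09), with Mrpl27 the lowest and Mrpl18 the 1 that was higher (0.01). Of these, 4 were lower with the length trend taken off (median -0.04), and 3 with GC content and length taken off (median 0.02). Mrpl38 was at 55.79 and 49.80 FPKM there (-0.16, interval -0.26 to -0.07).

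The 3 paralogs Mrps18a, Mrps18b and Mrps18c descend from the same bacterial protein, S18, and their products sit in different places. Mrps18c was counted among the genes with a bacterial relative, and Mrps18a and Mrps18b, whose places have no bacterial counterpart, among the mitochondria-specific ones. Mrps18c, in the position of the bacterial protein, was at 49.12 and 49.93 FPKM (log2 ratio 0.02, interval -0.16 to 0.20). Mrps18b, elsewhere in the small subunit, had a log2 ratio of -0.02 (interval -0.09 to 0.06). Mrps18a, in the large subunit, was at 59.16 and 56.63 FPKM (-0.06, interval -0.19 to 0.06). The intervals of all 3 paralogs included 0, and Mrps18b stood at more than 2 times the level of the other two in both libraries. A row annotated as like Mrps18b, Gm15760, had 51 and 67 reads, and a predicted model had 20 and 14, so copies took few reads beside the 3131 and 3111 of Mrps18b.

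Mrps12, part of the decoding center, was at 45.27 and 42.55 FPKM (log2 ratio -0.09, interval -0.25 to 0.07). Mrps36 bears the name of a small subunit protein, but its product is now placed in the 2-oxoglutarate dehydrogenase complex. It was at 40.94 and 40.19 FPKM (-0.03, interval -0.19 to 0.14), and 54 genes were lower without it. Neither gene differed between the libraries beyond counting error.

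Some members share ground with other genes. In RefSeq, 20 of the 77 overlap another coding gene, and the library kit does not mark strand, so reads from overlapping parts cannot be assigned. Mrpl18 overlaps Tcp1, a chaperonin subunit gene at 352.44 FPKM in PB and 330.65 in PB-TERRA, above the levels of Mrpl18. Mrpl27 overlaps Eme1 (30.48 and 30.18 FPKM), which showed a log2 ratio of -0.01 beside the -0.35 of Mrpl27. Mrpl53 overlaps Ccdc142, which was low (0.77 and 0.75 FPKM), Mrpl19 overlaps Gcfc2 (6.34 and 6.16 FPKM), and Mrpl57 overlaps Ska3 (32.21 and 31.42 FPKM). The row of Nme3 is annotated in part as Mrps34, and it was at 11.97 and 9.6 FPKM (-0.32), lower in the same direction as Mrps34.

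Members with NRF1 letters had a median log2 ratio of -0.12 (7 of 8 lower), and the 60 without had a median of -0.04 (42 lower). For the ETS letters the medians were -0.09 in 25 genes (20 lower) and -0.04 in 43 (29 lower). For YY1 they were -0.05 in 8 genes (6 lower) and -0.04 in 60 (43 lower). The TATA box showed a gap like that of NRF1, with a median of -0.12 in 5 genes (5 lower) and -0.04 in 63 (44 lower). For the CCAAT box the medians were -0.04 in 27 genes (19 lower) and -0.05 in 41 (30 lower). Mrpl9, with its overlapping NRF1 letters, was at 25.93 and 22.98 FPKM (-0.17, interval -0.31 to -0.04), and Mrpl22 was at 62.56 and 57.30 FPKM (-0.13, interval -0.26 to 0.0041). The ratios compared by motif are those with the length trend left in, where 50.9% of all genes were lower. No test of the difference between genes with and without a motif was made.

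Mitochondrial ribosomal proteins with other symbols were also measured. Of these 6, 4 were lower and 2 higher in PB-TERRA mESCs (median log2 ratio -0.06), also with the length trend taken off. Aurkaip1 was the lowest, at 49.2 and 43.37 FPKM (-0.18, interval -0.30 to -0.07), and Ptcd3, a small subunit protein with RNA-binding repeats, was the highest, at 61.46 and 64.57 FPKM (0.07, interval 0.0073 to 0.14). Ict1, the release factor-like protein of the large subunit that is also named Mrpl58, was at 46.55 and 41.12 FPKM (-0.18). Adding all 6 to the 77 genes gave 59 lower and 24 higher.

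The ribosome needs factors to build it and to run it. As a reference for the lists of such factors, 50.9% of all genes were lower, and 49.9% with the length trend taken off. Of 23 assembly factors, 16 were lower and 7 higher (median -0.05), and with the length trend taken off 12 were lower and 11 higher (median -0.03). They lay between Ddx28, an RNA helicase (11.62 and 9.68 FPKM, log2 ratio -0.26, interval -0.46 to -0.08), and Gtpbp10, a GTPase (16.98 and 19.42 FPKM, 0.19, interval 0.08 to 0.31). Of 13 translation factors, 9 were lower and 4 higher (median -0.02), and with the length trend taken off 8 were lower and 5 higher (median -0.01). Tsfm, the exchange factor of the elongation factor Tufm, was the lowest at 22.42 and 18.67 FPKM (-0.26, interval -0.44 to -0.09), and Mtrf1l, a release factor, was the highest at 1.88 and 2.11 FPKM (0.16, interval -0.20 to 0.54).

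The 17 mitochondrial aminoacyl-tRNA synthetases, which load amino acids onto tRNAs, were lower in 14 cases and higher in 3, with a median of -0.11. Sars2 was the lowest at 21.17 and 17.58 FPKM (-0.27, interval -0.41 to -0.13), and Mars2 the highest at 5.54 and 5.85 FPKM (0.08, interval -0.13 to 0.28). These genes are longer than the ribosomal protein genes (median 3344 bases), and 12 of 17 were lower with the length trend taken off (median -0.10).

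Of 10 genes for the transcription and replication of mitochondrial DNA and the stability of its mRNAs, 9 were lower and 1 higher (median -0.14), and 9 of 10 stayed lower with the length trend taken off (median -0.11). Polg2, the accessory subunit of the mitochondrial DNA polymerase, was the lowest at 4.24 and 3.07 FPKM (-0.45, interval -0.83 to -0.10), resting on 152 and 111 reads. Tfb2m, a transcription initiation factor, was the highest at 13.47 and 14.68 FPKM (0.12, interval -0.02 to 0.27). Mitochondrially encoded mRNAs, the templates this ribosome reads, were not analysed here, since 0 of 13 were found in the table.

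Regulators of nuclear genes for mitochondrial proteins showed no common direction. Of 9 listed, 8 were found, with 4 higher and 4 lower, also with the length trend taken off. Ppargc1b, a coactivator, was the highest at 1.28 and 1.62 FPKM (0.32, interval -0.02 to 0.72), and Mycn, a Myc family factor, the lowest at 108.38 and 91.5 FPKM (-0.24, interval -0.30 to -0.19). The factors whose letters were searched above stood at 27.58 and 24.69 FPKM (Nrf1, -0.16), 37.92 and 41.69 FPKM (Gabpa, 0.14) and 48.55 and 50.27 FPKM (Yy1, 0.05).

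Beside the 77 genes, the 76 cytosolic ribosomal protein genes had a median log2 ratio of -0.11, with 65 lower, and the 77 nuclear oxidative phosphorylation genes past the filter one of -0.05, with 51 lower. With the length trend taken off, the medians were -0.04 and 0.0017, against 0.0069 for the mitochondrial ribosomal protein genes. Rpl19, the control gene of the study's qRT-PCR, was at 1466.58 and 1405.13 FPKM (log2 ratio -0.06, interval -0.09 to -0.04), and its log2 ratio was 0.013 with the length trend taken off.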

How the data were processed

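For both conditions, total RNA was extracted from 46C mESCs with Trizol, made into libraries with a TruSeq kit that does not mark strand, and sequenced on the BGISEQ500 platform, 1 library per condition. The deposited file lists 18888 genes, each with its value in either library. No unit stands in its header, and the deposited values were taken to be FPKM, which the authors had divided by gene length and depth and rounded to 2 decimals. The submitters' processing notes name HISAT, Cufflinks and mm9, with no versions or roles. The table also holds the authors' own fold changes, p-values, adjusted p-values and direction calls, which were not used.

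The log2 ratio of PB-TERRA to PB was computed after adding 0.1 FPKM, for genes with at least 1 FPKM in 1 library or both. Reads per gene were estimated from low FPKM values (under 1 FPKM, genes of 250 to 900 bases), which fall on steps of 1 read once 114 bases are taken off the gene length. In PB, 72.9% of 575 such values were whole within rounding (0.005 FPKM), and in PB-TERRA 77.3% of 617. Exact binomial (Clopper-Pearson) 95% intervals of read ratios cover counting error only. The scripts were tested on simulated data. Alternatives were the pseudocount, the filter, the scaling, the membership and corrections by median over 50 length bins. A correction over 10 by 10 bins of GC content and length, and ratios of estimated reads, were added after seeing the data.

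The members, gene lists and motifs were chosen with earlier results of these data known. The genes named by rule were the 8 highest and 8 lowest ratios, the 5 highest and 5 lowest levels, Mrps18a, Mrps18b, Mrps18c, Mrps12, Mrpl12, Mrpl45 and Mrps36, the highest and lowest ratio of each list without members, and Rpl19. The other genes named were chosen after their values were seen. The lists of cytosolic ribosomal protein and oxidative phosphorylation genes were taken by symbol. The GC content of genes was read from GENCODE M21 (GRCm38), and overlaps and promoters from RefSeq on GRCm38.p6, which need not be the authors' annotation. Coordinates are those of GRCm38.p6 and were not compared with mm9. Software was scipy 1.17.1, numpy 2.4.6 and pandas 2.3.3 under Python 3.11.15, and matplotlib 3.10.9 drew the plots.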

Additional observations from a re-analysis of the deposited data

How the results depend on the processing

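The direction of the members relative to all genes changed with the corrections for gene length and GC content, and not with the scalings. With each library divided by its own sum, which moved the median of all genes from -0.0044 to 0.033, the median log2 ratio of the 77 genes was -0.0090 with 35 higher, that of the Mrps genes -0.025 and that of the Mrpl genes 0.0069. With the length trend taken off, these values were 0.0069 with 39 higher, -0.030 and 0.019, and with GC content and length taken off 0.017 with 39 higher, -0.0098 and 0.025. The lower counts were then 42, 38 and 38. The cause of the trends with length and GC content was not tested. The other scaling, pseudocounts, filters, memberships and ratios of estimated reads gave between 22 and 24 higher genes. Of the 26 members named by rule, 1 (Mrps18b) moved by more than the half-width of its counting interval, from -0.016 to 0.056, with GC content and length taken off. Of the 21 other genes named by rule, Rpl19 turned from -0.062 to 0.013 with the length trend taken off and to 0.019 with GC content and length taken off. Dppa5a and Tfcp2l1 moved under both corrections and kept their direction. With each library divided by its own sum, Rpl19 and Dppa5a moved and kept their direction. Pdgfra moved with a pseudocount of 1, from 0.85 to 0.41. The number of all genes with an absolute log2 ratio of at least 1 was 112, and it was 45 with a pseudocount of 1, 512 without the filter, 17 with a mean of at least 5 FPKM and 50 with GC content and length taken off.

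No paired analysis was possible because each condition has 1 library, and for the same reason no fit without a replicate exists. Depth limits the shallowest members most: Mrpl33, with 219 and 204 reads, has a counting interval from -0.39 to 0.17, wider than the whole range of ratios among the members.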
